A study of Mus musculus with 5 samples.

Results

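The 36 genes described here encode proteins of the endoplasmic reticulum (ER), of transport out of it and back, and transcription factors linked to it. In the ER, secreted and membrane proteins are translocated, folded, checked and loaded for export. The genes were taken by gene symbol as a list of secretory pathway and protein folding genes. This list was drawn up with earlier results of these data known and has no threshold on a measured value. All 36 were found, each once, among the 27998 genes of the mouse count matrices. By role they were 7 genes of the BiP system, 3 lectin and Hsp90 chaperones, 5 disulfide isomerases, 9 genes of the translocon and signal peptidase, 5 of ER export and retrieval, 5 transcription factors and 2 of ER-associated degradation. Discs of the temporomandibular joint (TMJ), the fibrocartilage plate between the jaw condyle and the skull, were dissociated with Pronase and Collagenase P and profiled with the 10x Genomics 3′ v2 chemistry. The labels give all libraries as wild-type (WT) C57BL/6 mice. Untreated discs gave 4 libraries, of mice aged 3 d, 3 w, 16 w or 78 w. The 3 d suspension pooled pups of both sexes, and the later untreated mice were male. The injured library came from mice aged 7 weeks whose disc had been injured with needles at its anterior band at 5 weeks, with collection 2 weeks later. The labels describe that injury as a pinch and the study's methods as punctures, and the methods name Myh11-CreER; Tm fl/- mice for it without saying which mice gave this library. An uninjured library of that age was not analysed here, so the injured library is set beside both 3 w and 16 w. Each condition had 1 library. No test between conditions was therefore possible, and each interval given below is a 95% interval of counting error only, which does not cover differences between animals or preparations.

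Proteins bound for secretion enter the ER through the Sec61 channel, assisted by the translocon-associated protein complex (the Ssr genes), and lose their signal peptide to the signal peptidase. Inside, the Hsp70-type chaperone BiP, the Hsp90-type chaperone Grp94, the lectin chaperones calreticulin and calnexin and a set of disulfide isomerases fold them. COPII coats then carry them toward the Golgi, and KDEL receptors return escaped ER residents. Type I procollagen, the main product of fibrous connective tissue, depends on this route and also on prolyl 4-hydroxylase, whose beta subunit is the disulfide isomerase P4hb, on the cargo receptor Mia3 (TANGO1) and on the collagen chaperone Serpinh1 (HSP47). The unfolded protein response raises folding capacity through the factors Atf6 and Xbp1 and, by way of Atf4, induces Ddit3 (CHOP). The comparison of main interest was whether these genes were lower together with collagen I at 16 w than at 3 w.

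The files held 8467 to 15169 barcodes per library, with 31585993 (injured) to 125427849 (3 w) UMIs (unique molecular identifiers) in all and a median of 3299 (injured) to 12496 (3 w) in the barcodes kept, so the injured library was the shallowest. Pairs of libraries shared 19 to 39 barcodes. Levels are CPM, the UMIs of a gene per 1000000 UMIs, summed over the cells of a type in a library. The main cell type was the stroma, 3 clusters high in the fibroblast and fibrochondrocyte markers Dcn, Lum, Fmod, Comp and Chad, with 10337 cells at 3 d, 7899 at 3 w, 7666 at 16 w, 8341 at 78 w and 6799 in the injured library. Cluster 1 was led by Cytl1 and Chad, cluster 2 by Coch, Kera and Tnmd, and cluster 3 by Pi16 and Clec3b. Clusters 2 and 3 held most stromal cells at 3 d, and cluster 1 most of them in every later library. The clusters were made without the genes reported here. A set of Gm genes that overlap satellite repeats took 8189.7 CPM of the injured stroma against 14.5 to 473 in the others.

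Collagen I was far lower at 16 w than at 3 w, and most secretory genes were not. In the stroma, Col1a1 and Col1a2, the chains of type I collagen, summed to 19931, 29231, 2824, 2664 and 36543 CPM in the 3 d, 3 w, 16 w, 78 w and injured libraries, while the 36 genes summed to 8108, 5944, 8543, 9112 and 7475 CPM in the same order. From 3 w to 16 w Col1a1 was 13.8-fold lower and Col1a2 8.61-fold lower, and the sum of the 36 genes went from 5944 to 8543 CPM. A gene was counted as higher or lower when its CPM differed at least 1.5-fold and the library with the higher CPM held at least 100 UMIs of it. By that count 11 of 36 genes were higher at 16 w and 3 were lower, whereas 12.4% of the 12192 genes tested were higher and 17.7% lower. The median log2 ratio of 16 w to 3 w was 0.34 over the 36 genes and -0.10 over all genes tested. Serpinh1 was at 1058, 332, 394, 511 and 755 CPM, a ratio of 1.19 (1.17 to 1.21) from 3 w to 16 w, so the collagen chaperone was not lower with its client either. Of 11 other collagen and matrix genes 8 were lower, among them Sparc (0.108) and Col3a1 (0.119), while Col14a1 was at 0.917 and Col2a1 alone was higher (2.33).

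**Figure D1:**
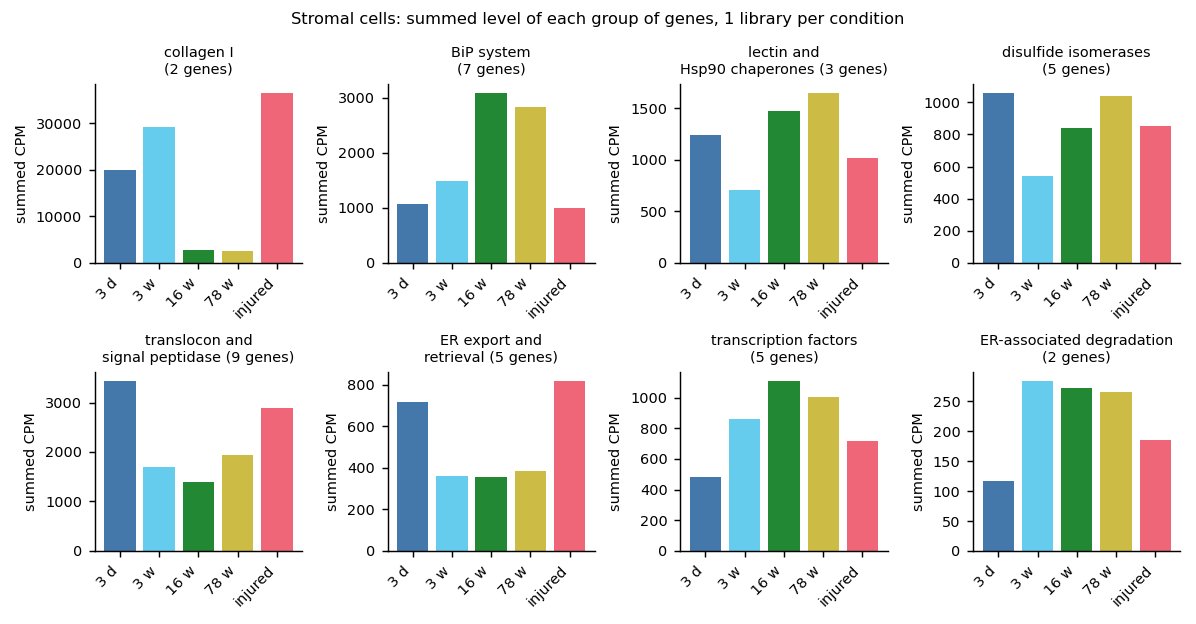
Bars show the CPM summed over the genes of each group in the stromal cells of 1 library per condition, with every axis starting at 0. Collagen I drops from 29231 CPM at 3 w to 2824 at 16 w, the BiP system is higher at 16 w over the same ages (1486 to 3085 CPM), and the translocon and export groups are highest at 3 d and in the injured library.

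Of the 11 higher genes at 16 w, 8 were chaperones, isomerases and their partners and 3 were transcription factors. BiP itself, encoded by Hspa5 (chr2:34771970-34777547 in GRCm38), was at 564 CPM at 3 d, 632 at 3 w, 1949 at 16 w, 1595 at 78 w and 360.2 in the injured library. Both adult libraries lay above the other 3, and the ratio of 16 w to 3 w was 3.09 (3.06 to 3.11). Sdf2l1, which keeps BiP client complexes soluble, was at 9.44, 10.9, 47.8, 74.2 and 29.6 CPM in the order 3 d, 3 w, 16 w, 78 w and injured, used from here on, and had the highest ratio of the 36, 4.4 (4.13 to 4.7). Hyou1, the nucleotide exchange factor of BiP, was at 9.32, 7.83, 28.5, 33.8 and 18.0 CPM. Its ratio was 3.63 (3.36 to 3.93), with both adult libraries highest again. Manf, a secreted ER protein that binds BiP, was at 220.2, 134, 358, 423 and 165 CPM, a ratio of 2.67 (2.62 to 2.73). The J-domain co-chaperones of BiP did not share this pattern in the stroma as a whole. Dnajb9 had a ratio of 1.04, Dnajb11 of 1.04 and Dnajc3 of 0.977. By stromal cluster, Dnajb11 was at 0.963, 1.09 and 1.85 (1.64 to 2.09) in clusters 1, 2 and 3, and Dnajb9 at 1.12, 0.982 and 0.677. Within the BiP system, 4 of 7 genes were higher and none lower in the stroma as a whole.

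Grp94, the ER form of Hsp90, is encoded by Hsp90b1 and was at 495, 321, 799.7, 978 and 538 CPM, 2.49-fold higher at 16 w than at 3 w (2.46 to 2.53). Calr, the soluble lectin chaperone calreticulin, was at 553, 274, 517, 493 and 301 CPM, with a ratio of 1.88 (1.86 to 1.91), and its membrane-bound relative Canx had a ratio of 1.41. For Calr the 3 d library was as high as the adult ones, which was not so for Hsp90b1. Among the disulfide isomerases, Creld2 was at 35.6, 20.6, 64.5, 93.8 and 54.5 CPM, a ratio of 3.13 (2.98 to 3.29), and Pdia4 at 49.2, 35.3, 74.9, 86.0 and 83.4 CPM, a ratio of 2.13 (2.04 to 2.21). Pdia3, Pdia6 and P4hb lay just under the threshold at 1.46, 1.37 and 1.49. P4hb, which also serves prolyl hydroxylation of collagen, was at 484, 169, 252, 294 and 315 CPM, highest at 3 d and lowest at 3 w. All 8 genes of these roles had a ratio above 1, and 4 of them passed 1.5-fold.

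Promoters bear on these genes because the ER stress element is the best known sequence shared by ER chaperone genes. RefSeq promoter windows of GRCm38.p6, from 250 bases before to 50 after each gene start, were held for 30 of the 36 genes and were searched on both strands for 3 motifs. They were the ER stress element ERSE (CCAAT, then any 9 bases, then CCACG), ERSE-II (ATTGG, then any 1 base, then CCACG) and the unfolded protein response element UPRE (TGACGTGG), whose last letters CGTGG are the CCACG of ERSE and ERSE-II read on the opposite strand. ERSE was found in 37 of 27025 genes with a window (0.137%), 7 of them among the 36: Hspa5, Dnajc3, Hsp90b1, Calr, Canx, Pdia6 and Creld2. The windows around each match are printed because 4 of these 7 genes were among the 11 that were higher at 16 w. Of the rest of the 11, Hyou1, Manf and Creb3l1 had no window to search. Sdf2l1, Pdia4, Xbp1 and Creb3l2 had a window without ERSE. Capitals mark the motif, lower case the 10 bases on each side, and each sequence runs 5′ to 3′ on the strand of its gene. An ERSE printed as its reverse complement begins with CGTGG.
Hspa5, chr2:34772015-34772053, plus strand: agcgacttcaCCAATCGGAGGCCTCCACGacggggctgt
Hsp90b1, chr10:86705628-86705666, minus strand: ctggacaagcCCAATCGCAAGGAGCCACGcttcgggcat
Hsp90b1, second match, chr10:86705523-86705561, minus strand: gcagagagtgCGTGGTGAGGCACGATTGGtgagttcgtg
Calr, chr8:84847065-84847103, minus strand: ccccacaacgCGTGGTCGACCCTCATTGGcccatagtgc
Creld2, chr15:88819510-88819548, plus strand: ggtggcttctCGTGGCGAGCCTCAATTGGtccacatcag
Canx, chr11:50325790-50325828, minus strand: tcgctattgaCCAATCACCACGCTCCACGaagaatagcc
Pdia6, chr12:17266481-17266519, plus strand: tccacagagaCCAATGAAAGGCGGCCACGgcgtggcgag
Dnajc3, chr14:118937817-118937855, plus strand: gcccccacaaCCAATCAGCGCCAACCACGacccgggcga
The 250 bases before the start of the BiP gene, with the ERSE 65 bases before the RefSeq gene start in capitals, read as follows.
Hspa5, chr2:34771840-34772089, plus strand: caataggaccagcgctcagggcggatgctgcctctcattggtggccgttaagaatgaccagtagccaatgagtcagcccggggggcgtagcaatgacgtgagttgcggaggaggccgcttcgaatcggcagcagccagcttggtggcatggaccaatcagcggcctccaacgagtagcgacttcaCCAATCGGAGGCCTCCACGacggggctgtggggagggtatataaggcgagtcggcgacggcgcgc
Of the 7 genes with ERSE, Creld2, Hspa5, Hsp90b1 and Calr had ratios of 16 w to 3 w of 3.13, 3.09, 2.49 and 1.88, and Canx, Pdia6 and Dnajc3 had 1.41, 1.37 and 0.977. Dnajc3 therefore carried the same letters with a ratio near 1. Of the other 30 genes with ERSE, 8 had enough UMIs, and 2 of these were higher and 0 lower, with a median log2 ratio of 0.34. The higher ones were Syvn1, the ubiquitin ligase of ER-associated degradation, at 2.05 and Acacb at 1.65. ERSE-II was found in 12 genes (0.0444%), among them Dnajb11 and Herpud1, whose ratios were 1.04 and 0.893. A match is a description of the letters and not evidence of binding.

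The genes of protein entry differed from the chaperones. The 9 genes of the translocon and signal peptidase summed to 3438, 1705, 1402, 1937 and 2894 CPM, and none was higher at 16 w than at 3 w by 1.5-fold while 2 were lower. Both were subunits of the translocon-associated protein complex. Ssr2 was at 346, 160.3, 74.0, 105 and 136 CPM, 2.17-fold lower at 16 w with a ratio of 0.461 (0.448 to 0.475). Ssr4 was at 765, 412, 221, 378 and 481 CPM, a ratio of 0.536 (0.527 to 0.546), and lay back near its 3 w level at 78 w. Ssr1 and Ssr3, subunits of the same complex, had ratios of 1.1 and 0.898. Spcs1 and Spcs2 of the signal peptidase had 0.685 and 0.791. The channel subunits Sec61a1, Sec61b and Sec61g had 1.3, 1.25 and 1.15, in the opposite direction from Ssr2 and Ssr4. Within the translocon-associated complex, subunits thus differed from each other by more than their counting intervals.

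Of the 5 genes of export and retrieval, Kdelr3 alone passed 1.5-fold. This KDEL receptor was at 143, 57.3, 30.6, 35.8 and 67.0 CPM, 1.87-fold lower at 16 w than at 3 w (ratio 0.534, 0.509 to 0.559). The receptor of the same family Kdelr2 was at 422, 153, 170.5, 203 and 568 CPM, with a ratio of 1.11. Mia3, which builds the export sites of procollagen, had a level of 49.7, 55.3, 61.9, 62.9 and 59.3 CPM, and its ratio was 1.12 (1.08 to 1.16). Sec23a and Sec24d, the COPII coat genes whose loss impairs collagen export in the skeleton, had ratios of 0.747 and 1.21. The collagen cargo receptor Mia3 and the coat genes Sec23a and Sec24d were thus within 1.5-fold across a 13.8-fold difference in Col1a1. UPRE, a motif bound by Xbp1 and by the Creb3l family, was found in 193 genes (0.714%) and in 3 of the 30 windows, those of Kdelr3, Sec23a and Sec24d. The windows around the matches are shown because these are all export or retrieval genes.
Kdelr3, chr15:79516368-79516395, plus strand: ggccgccccgCCACGTCAccgcgcggcc
Sec23a, chr12:59011994-59012021, minus strand: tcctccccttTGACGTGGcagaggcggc
Sec24d, chr3:123267460-123267487, plus strand: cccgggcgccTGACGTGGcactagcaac

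Among the transcription factors, 3 of 5 were higher at 16 w and none lower. Xbp1, which is spliced on ER stress and drives ER biogenesis, was at 74.2, 122, 209, 189.9 and 124 CPM, a ratio of 1.72 (1.68 to 1.76). The membrane-bound factors Creb3l1 (OASIS), an activator of Col1a1 in bone, and Creb3l2 (BBF2H7), which serves the secretory route of cartilage, had ratios of 1.61 (1.55 to 1.67) and 1.68 (1.64 to 1.73). Creb3l1 was at 67.5, 46.0, 74.1, 62.0 and 64.5 CPM, so it was lowest at 3 w, where collagen I was at its highest among the untreated libraries. Creb3l2 was at 80.7, 91.1, 153, 143 and 92.5 CPM. The 3′ counts cannot separate spliced from unspliced Xbp1 or show the cleaved form of the membrane-bound factors. Atf4 was at 217, 503, 550.1, 509 and 406 CPM and Ddit3 at 42.9, 95.6, 122, 103 and 30.9 CPM, with ratios of 1.09 and 1.28. For ER-associated degradation, Herpud1 had 0.893 and Sel1l 1.34.

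**Figure D2:**
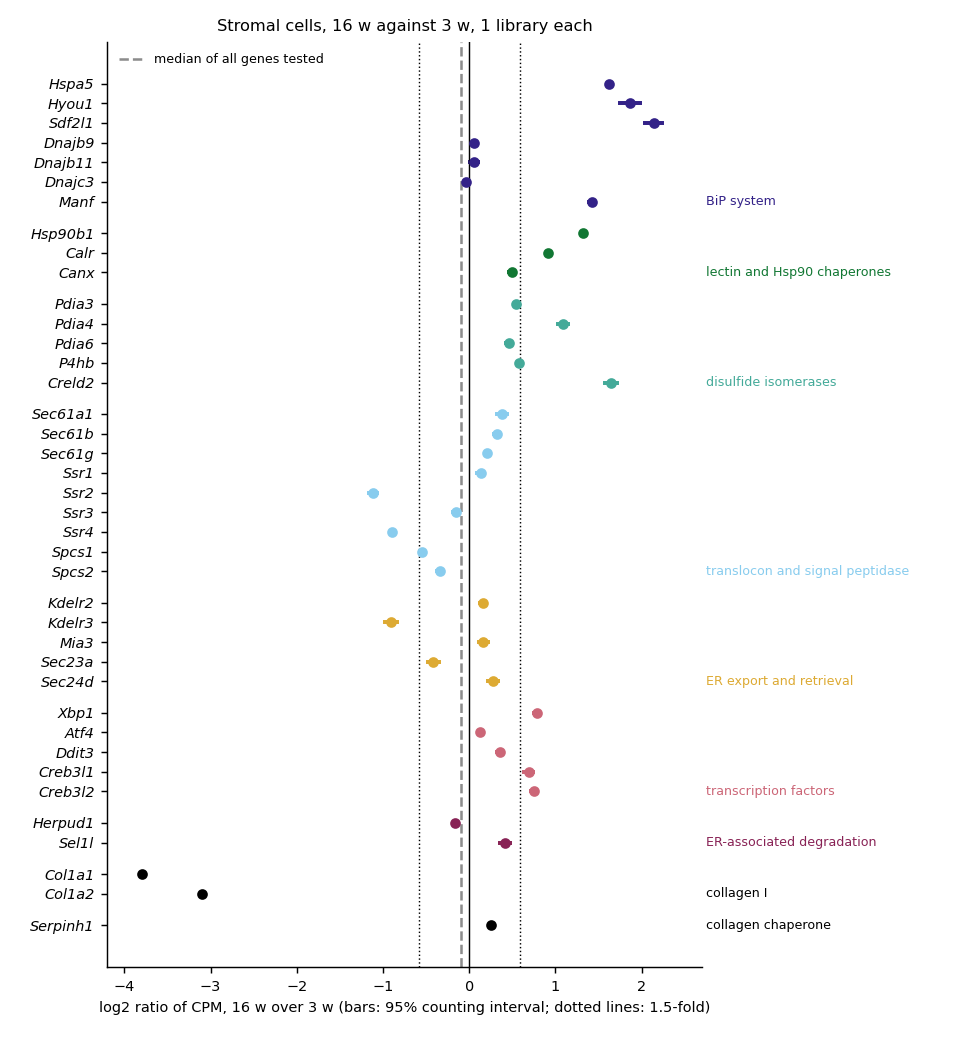
Points give the log2 ratio of stromal CPM at 16 w to 3 w for the 36 genes by role, for the collagen I chains and for Serpinh1, with bars for the 95% counting interval, dotted lines at 1.5-fold and a dashed line at the median of all genes tested (-0.10). The BiP, lectin and Hsp90, and isomerase groups lie to the right apart from the 3 J-domain co-chaperones near 0, Ssr2, Ssr4 and Kdelr3 to the left, and Col1a1 (-3.79) and Col1a2 (-3.11) lie apart from all of them.

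The rest of the pathway was read from 6 further lists. Of 25 other ER folding genes tested, 5 were lower at 16 w than at 3 w and 4 higher (median log2 ratio -0.24). At the ends were Ppic, the ER cyclophilin C, from 299.7 to 40.2 CPM, and Fkbp11 from 14.6 to 5.05 CPM, against Ero1lb at 2.15 and Fkbp2 at 1.9. Ppic, with 606, 299.7, 40.2, 64.7 and 322 CPM, was the gene of these lists that stood nearest to collagen I in its drop. Of 26 genes of targeting, translocation and N-glycosylation, 3 were lower, led by Srp19 (0.582) and Sec11a (0.62), and 1 higher, Magt1 (1.98), with Spcs3 next at 1.39. Of 24 COPII genes, 2 were lower, Tmed3 (0.58) and Sar1a (0.632), and 1 higher, Sec24a (1.5), with Sec23b at 1.46. Of 16 COPI and Golgi genes, 3 were lower, including Yif1a (0.495) and Kdelr1 (0.655), and none higher, the highest being Copg1 (1.19) and Golga2 (1.03). Of 23 stress sensor and degradation genes, 4 were lower, including Derl1 (0.588) and Herpud2 (0.614), and 2 higher, Syvn1 (2.05) and the sensor Ern1 (1.62). Of 12 targets of Atf4, 4 were lower, including Chac1 (0.23) and Phgdh (0.371), and 1 higher, Ddit4 (1.71), with Stc2 at 1.23. In none of these 6 lists did more genes pass the threshold upward than downward. Over all 12192 stromal genes tested between these ages more were lower than higher as well (median log2 ratio -0.10). The list counts are to be read against the all-gene shares given above.

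Other genes moved with the chaperones at 16 w. The 15 cytosolic chaperones of a comparison list summed to 6554, 6347, 9905, 7826 and 7119.7 CPM, with the heat shock genes Hspa1b and Hspa1a at 4.96 and 3.01 times their 3 w level, and Cct5 (0.557) and Cct3 (0.683) at the other end. The 12 immediate early genes known to respond to tissue dissociation summed to 6192, 9731, 15162, 10458 and 7914 CPM, with Egr1 at 2.65 and Fosb at 2.12, and Btg2 (0.621) and Ier2 (0.801) lowest. Their part in the chaperone levels was not tested. In the 78 w library the dissociation genes were at 10458 CPM against 9731 at 3 w, the cytosolic chaperones at 7826 against 6347, and the BiP system at 2831 against 1486. Single genes of the first 2 lists differed more than their sums. Hspa1b was at 657 CPM at 78 w against 211 at 3 w and Hspa1a at 684 against 376. Btg2 was at 158 against 375 and Ier2 at 196 against 379.

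From 16 w to 78 w few of the genes differed. Collagen I was low at both ages, with ratios of 0.968 for Col1a1 and 0.931 for Col1a2. Of the 36 genes none was lower and 3 were higher, while 5.24% of all 11908 genes tested were lower and 5.14% higher. The 3 were Sec61b at 1.8 (1.76 to 1.84), Ssr4 at 1.71 (1.68 to 1.74) and Sdf2l1 at 1.55 (1.49 to 1.61). BiP was lower within the threshold, at 0.818. Set against the same 3 w library, the 78 w library had 15 of 36 genes higher and 3 lower (12.6% and 20.6% of all genes). These included Sdf2l1 at 6.82, Creld2 at 4.55, Hyou1 at 4.32 and Hspa5 at 2.52. In this comparison all 5 disulfide isomerases and all 3 lectin and Hsp90 chaperones passed 1.5-fold. Among the other ER folding genes from 16 w to 78 w the highest ratios were those of Fkbp11 (2.55) and Pdia5 (2.01), none was 1.5-fold lower, and Hspa13 (0.821) and Ero1lb (0.927) were at the other end.

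**Figure D3:**
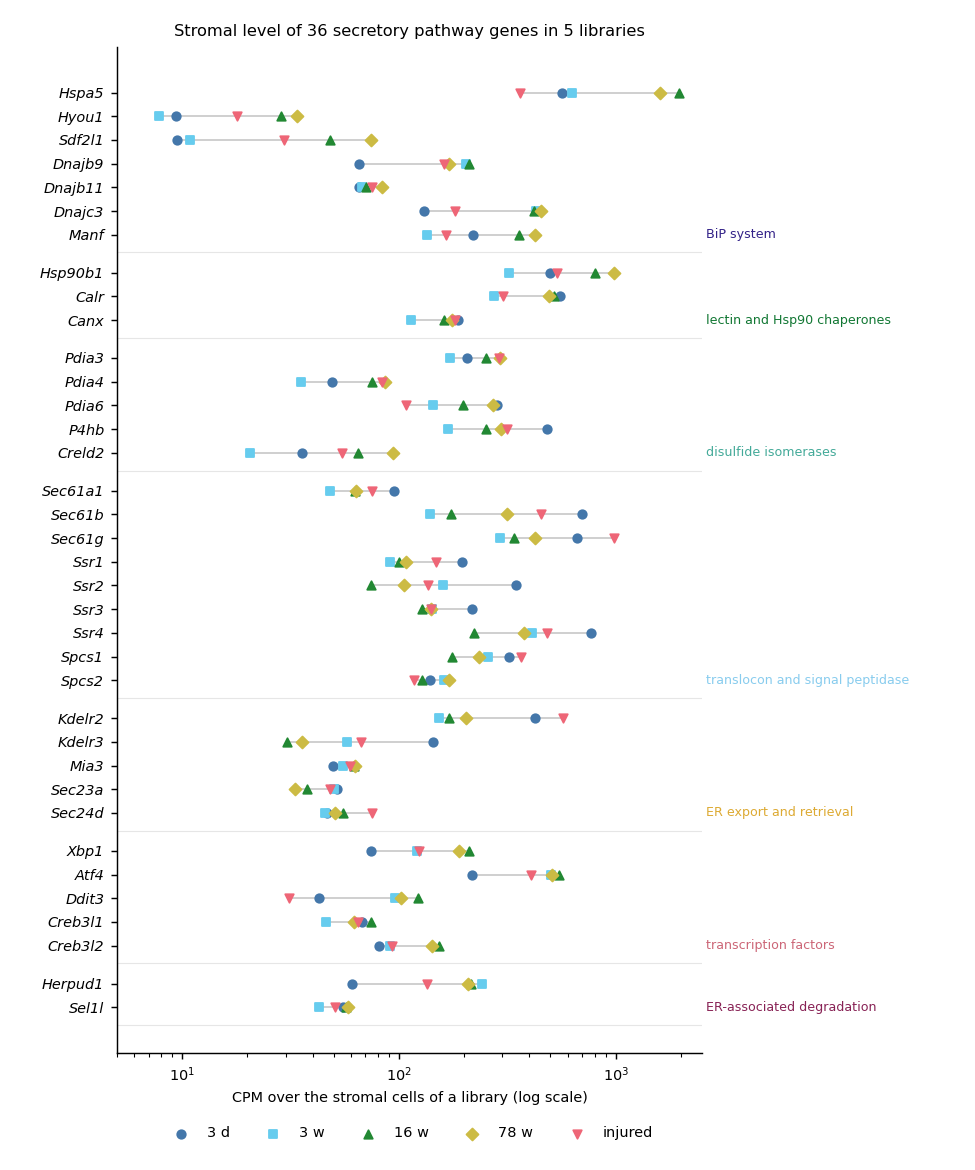
Each row is 1 of the 36 genes, grouped by role, and each symbol its stromal CPM in 1 library on a log axis. For Hspa5, Hyou1, Sdf2l1, Manf and Hsp90b1 the 16 w and 78 w symbols lie to the right of the other libraries, whereas for most translocon genes and Kdelr2 the 3 d or injured symbol lies farthest right.

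From 3 d to 3 w collagen I was higher (19931 to 29231 CPM) and much of the secretory machinery was lower. Of the 36 genes 16 were lower and 6 higher, against 29.1% lower and 27.4% higher of all 12911 genes tested. In the translocon 7 of 9 genes were lower and none higher. Sec61b, the beta subunit of the channel, was at 699, 139, 175, 314 and 454 CPM, so the 3 w library held 5.01-fold less of it than the 3 d library (0.20, 0.196 to 0.203). Sec61g (0.445), Ssr2 (0.464), Ssr1 (0.469), Sec61a1 (0.506), Ssr4 (0.539) and Ssr3 (0.655) were lower too. The KDEL receptors followed, with Kdelr2 at 0.363 and Kdelr3 at 0.40, and so did P4hb at 0.349 (0.343 to 0.355), Calr at 0.496 and Pdia6 at 0.507. Creld2 (0.579), Canx (0.605), Manf (0.609) and Hsp90b1 (0.648) completed the 16. Serpinh1, at 0.314, was 3.19-fold lower at 3 w while Col1a1 was 1.33-fold higher.

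The 6 genes that were higher at 3 w than at 3 d were Herpud1, Dnajc3, Dnajb9, Atf4, Ddit3 and Xbp1. ER stress is known to induce them, as it does several of the 16 lower genes, such as Creld2, Manf and Hsp90b1. Herpud1, a membrane component of ER-associated degradation, was at 61.0, 241, 216, 207 and 135 CPM, a ratio of 3.96 (3.85 to 4.07) from 3 d to 3 w. Dnajc3, the BiP co-chaperone that restrains the kinase Perk, was at 131, 431, 421, 452 and 182 CPM (ratio 3.29). Dnajb9, the co-chaperone that recognizes misfolded proteins, was at 65.4, 203, 210.3, 169 and 161 CPM (ratio 3.1). Atf4 had a ratio of 2.32, Ddit3 of 2.23 and Xbp1 of 1.64. Among the further lists, 8 of 12 targets of Atf4 were higher and 2 lower, led by Chac1 (from 0.46 to 46.7 CPM) and Trib3 (from 0.554 to 8.2 CPM), with Phgdh (0.335) and Psat1 (0.582) lower. Of the stress sensor and degradation genes 9 of 23 were higher and 3 lower, with the sensors Atf6 at 3.21 and Eif2ak3 at 2.67 and with Edem2 (0.594) and Atf6b (0.63) lowest. In contrast 11 of 25 other ER folding genes were lower and 3 higher, with Fkbp11 at 0.096 and Pdia5 at 0.119 at one end and Ero1lb (1.81) and Sil1 (1.8) at the other. Lower genes also outnumbered higher ones in targeting and N-glycosylation (6 to 2 of 26), COPII export (8 to 2 of 24) and COPI and Golgi (5 to 0 of 16). The lower counts of these lists lay near the share of all genes that was lower between these ages, given above. Fewer of their genes were higher than over all genes.

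The mix of stromal clusters changed between these ages. Collagen I went from 21367 CPM at 3 d to 31657 at 3 w in cluster 1. It went from 24956 to 26470 CPM in cluster 2 and from 15146 to 16820 in cluster 3. Cluster by cluster, 10 genes were lower and 7 higher (all genes 21.4% and 32.5%) in cluster 1, 17 genes were lower and 6 higher (all genes 22.8% and 33.5%) in cluster 2 and 19 genes were lower and 6 higher (all genes 32% and 25.9%) in cluster 3. Cytosolic ribosomal protein genes took 29.7% of stromal UMIs at 3 d, 15.6% at 3 w, 19.7% at 16 w, 20.9% at 78 w and 21.8% in the injured library, so they were also lower at 3 w than at 3 d, and their part in these differences was not tested. The dissociation genes were at 6192 CPM at 3 d and 9731 at 3 w. The pooling of both sexes at 3 d and the difference in age cannot be told apart.

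Within the stroma, 3 genes were lower and 12 higher (all genes 16.1% and 14.2%) at 16 w than at 3 w in cluster 1, 5 genes were lower and 10 higher (all genes 30.8% and 8.79%) in cluster 2 and 3 genes were lower and 14 higher (all genes 19.7% and 9.48%) in cluster 3. The comparison was repeated in the other cell types, which are not the main source of collagen I. In the endothelial (EC)-like cluster, marked by Pecam1 and Cdh5, 10 of 31 genes with enough UMIs were higher and 3 lower (all genes 16.8% and 15.2%), which became 6 and 4 with trimmed mean (TMM) scaling. In the macrophage (MPh)-like cluster, marked by C1qa and Csf1r, 9 of 23 were higher and 2 lower (7.24% and 19.2%). Neutrophil and mast cell markers there summed to 8.97 CPM at 3 w and 276 at 16 w, and macrophage markers to 23755 and 21678. The part of other leukocytes in the ratios was not tested. In the mural cell (MC)-like cluster, marked by Rgs5 and Myh11, 1 of 30 was higher and 6 lower (14.4% and 22.6%). In the synovial lining-like cluster, marked by Prg4 and Clic5, 2 of 28 were higher and 2 lower (12.6% and 12.7%). These clusters held 574, 112, 241 and 96 cells at 16 w, so fewer genes reached 100 UMIs than in the stroma. When each cell was thinned to 1000 UMIs, fewer still reached it, and 4 genes were higher and 3 lower in EC-like and 1 and 1 in MPh-like cells.

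BiP did not follow one course in all cell types. Hspa5 went from 1187 to 1118 CPM in the EC-like cluster and from 1408 to 1139 in the MC-like cluster, both below 1 in ratio (0.942 and 0.809), and from 881 to 1818 in the MPh-like cluster (2.06). The 3 stromal clusters each showed a higher level at 16 w, with ratios of 3.43 in cluster 1, 2.71 in cluster 2 and 2.33 in cluster 3. At 3 w the EC-like and MC-like clusters had a higher Hspa5 CPM than the stroma (632 CPM), and at 16 w they had less. Hsp90b1 was higher in all of these clusters, at 2.51 in EC-like, 1.72 in MC-like, 2.37 in MPh-like and 1.48 in synovial lining-like cells, the last under the threshold. Kdelr3 was lower in every stromal cluster (0.566, 0.385 and 0.627) and in the MC-like cluster (0.435). Ssr2 was lower in stromal clusters 1, 2 and 3 at 0.478, 0.323 and 0.607 and had a ratio of 0.967 in the EC-like cluster.

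Atf4 had ratios of 0.435 in EC-like, 0.553 in MC-like, 0.661 in MPh-like cells and 0.71 in synovial lining-like cells, against 1.09 in the stroma as a whole. Herpud1 had 0.564, 0.561, 1.38 and 1.13 in these clusters against 0.893. The stromal clusters differed for Atf4, with 1.16, 1.1 and 0.672 in clusters 1, 2 and 3, so cluster 3 was near the MPh-like cells. Ddit3 had 1.8, 0.828 and 0.777 in stromal clusters 1, 2 and 3. Collagen I itself went down in the EC-like cluster from 5442 to 775 CPM. Since ECs are not known to make it in such amounts, free stromal RNA in the droplets can add to any gene there, and the share of it in the values above was not tested. The cytosolic chaperones were at 38331 CPM in the MPh-like cluster at 16 w from 8835 at 3 w.

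**Figure D4:**
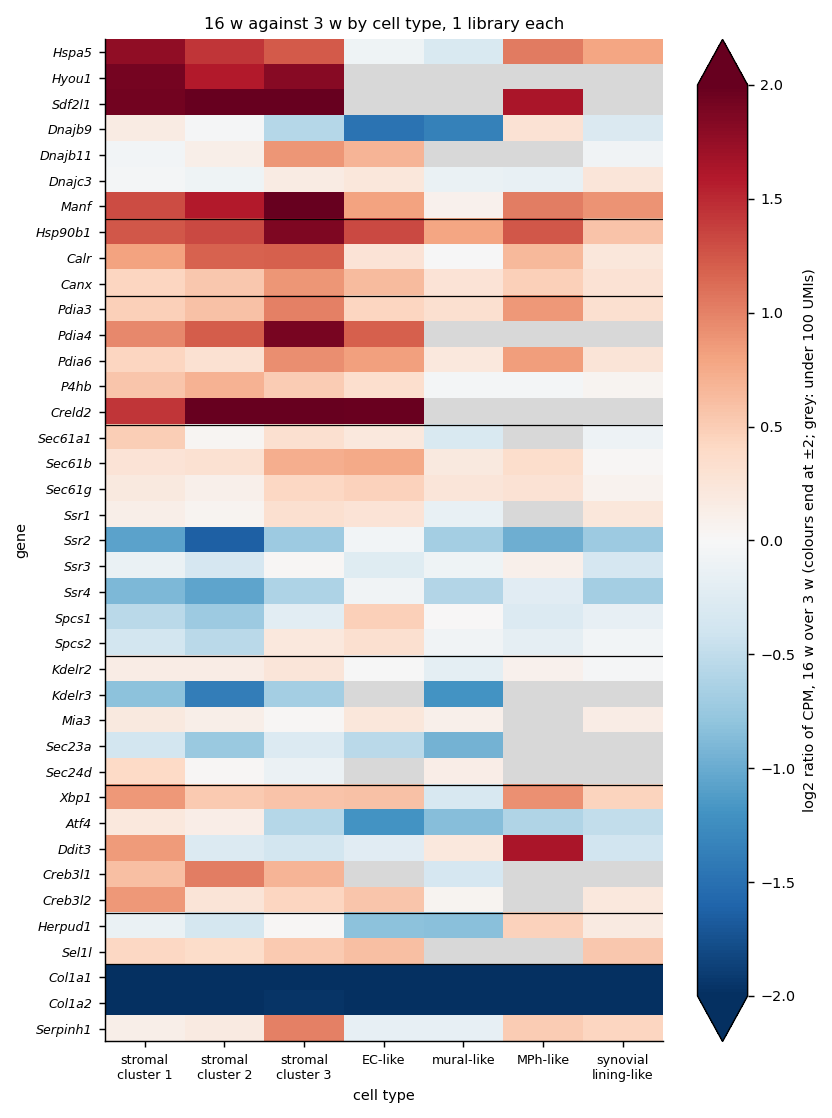
Colours give the log2 ratio of CPM at 16 w to 3 w for each gene (rows, black lines between roles) in each cluster (columns), with grey where under 100 UMIs were counted. Red at Hspa5 is limited to the stromal, MPh-like and synovial lining-like columns, Hsp90b1 is red in all 7 columns, and the collagen I rows are dark blue throughout.

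A second way to relate the genes to collagen I is among the cells of 1 library, where age and preparation are the same. Stromal cells with at least 1000 UMIs were divided into 4 equal bins by the share of their UMIs that was Col1a1 or Col1a2, and CPM was then computed over the UMIs that were neither. The genes named here were chosen after their values were seen. Kdelr3 was higher in the highest bin than in the lowest by 1.51, 1.62, 2.03, 2.12 and 2.46 times in the 3 d, 3 w, 16 w, 78 w and injured libraries. At 3 w its level was 42.5, 54.7, 62.2 and 69.0 CPM from the lowest to the highest bin. Creb3l1 showed ratios of 2.04, 2.4, 1.32, 1.59 and 1.71, Ssr4 of 1.41, 1.66, 1.64, 1.49 and 1.5 and Sec61b of 1.35, 1.3, 1.29, 1.42 and 1.65. Serpinh1, the collagen chaperone, had 1.47, 1.7, 1.96, 2.69 and 2.39. The ratio was above 1 in all 5 libraries for 15 of the 36 genes, among them all 5 export and retrieval genes and 6 of 9 translocon genes but none of the 7 genes of the BiP system or the 3 lectin and Hsp90 chaperones. Of the 5748 genes with at least 100 UMIs in all 5 libraries 11.7% were above 1 in all of them. Some of the 15 lay close to 1, such as Sec24d at 3 w with 1.07 (0.983 to 1.16).

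BiP had no single direction among cells. Hspa5 had ratios of 0.782, 0.545, 0.976, 1.14 and 0.787, so at 3 w the cells with the most collagen I had 485 CPM and those with the least 889.8. Ddit3 had 0.578, 0.36, 1.02, 1.03 and 1.74, with 163 CPM in the lowest and 58.5 in the highest bin at 3 w. Xbp1 (0.917, 0.851, 0.931, 0.91 and 0.868) was below 1 in all 5 libraries, but at 3 d it was at 1.06 when the bins were made inside each cluster. Counted at 1.5-fold, 3 genes were higher and 4 lower at 3 d (all genes 4.83% and 11.2%), 3 and 2 at 3 w (5.44% and 15.4%), 3 and 0 at 16 w (7.86% and 1.57%), 8 and 0 at 78 w (10.7% and 2.58%), and 8 and 0 in the injured library (7.54% and 3.58%). At 78 w the 8 higher genes included all but P4hb of the disulfide isomerases, with Creld2 at 1.84 and Pdia6 at 1.66, and in the injured library they included Kdelr2 at 2.05 and Sec24d at 1.72. The bins differed in depth and in cluster as well. At 3 w the median UMI count went from 9981 to 17187 and the share of cluster 3 from 22.6% to 3.4%. With bins made inside each cluster, Kdelr3 kept ratios of 1.66 to 2.28, Creb3l1 of 1.4 to 2.27 and Hspa5 of 0.617 to 1.01.

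**Figure D5:**
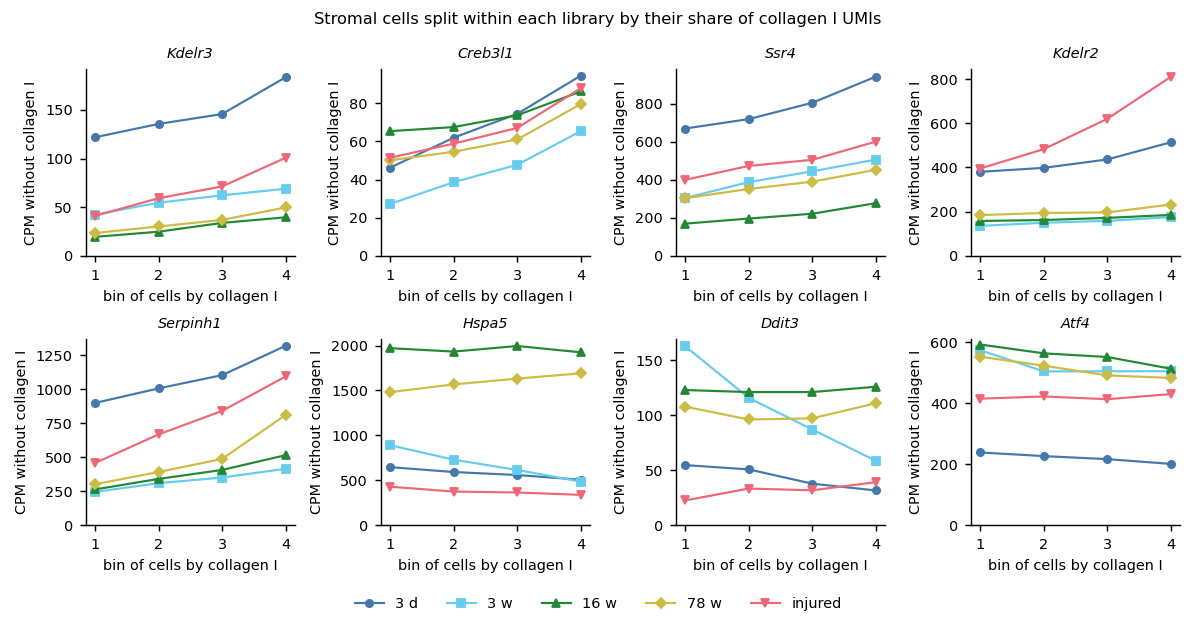
Lines give CPM over UMIs other than collagen I in the 4 bins of stromal cells, from the lowest to the highest share of collagen I, for 8 genes chosen after their values were seen, with 1 line per library and axes from 0. Kdelr3, Creb3l1, Ssr4 and Serpinh1 climb in every library, Kdelr2 climbs most steeply in the injured library (395 to 810.5 CPM), and Hspa5 and Ddit3 descend at 3 w.

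In the injured library Col1a1 was at 24484 CPM, 1.89 times its 3 w and 26.1 times its 16 w level, while Col1a2 was at 0.742 and 6.39 times. Against 3 w, 14 of the 36 genes were higher and 4 lower, and over all 11497 genes tested 10.4% were higher and 37.1% lower. The median log2 ratio of all genes was -0.37, so ratios are to be read against that shift. Against 16 w, 7 were higher and 11 lower (12.5% and 32.9%, all-gene median -0.31), a split that became 8 and 8 with TMM scaling, which adds 0.12 to every log2 ratio to 16 w and 0.18 to those to 3 w. The injured and normal comparisons share the 3 w or the 16 w library, so the values are given side by side.

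Several entry and retrieval genes were high after injury, and others were not. Against 3 w, Spcs2 was at 0.731, Ssr2 at 0.847, Ssr3 at 0.989 and the retrieval receptor Kdelr1 at 0.803. Kdelr2, the KDEL receptor, was 3.71 times its 3 w level (3.63 to 3.79) and 3.33 times its 16 w level, and exceeded the 3 d library (568 against 422 CPM). Sec61g, the gamma subunit of the channel, was at 659.8, 294, 339, 426 and 977 CPM, 3.33 and 2.88 times 3 w and 16 w. Sec61b was at 3.26 and 2.6. Sec61a1 (1.57 against 3 w) and Ssr1 (1.62) passed against 3 w only, whereas Ssr2 (1.84), Ssr4 (2.18), Spcs1 (2.07) and Kdelr3 (2.19) passed against 16 w only. Ssr1 was at 194, 91.1, 99.8, 107 and 148 CPM, Sec61a1 at 94.8, 48.0, 62.4, 63.5 and 75.3 CPM and Spcs1 at 322, 257, 176, 233 and 364 CPM. Sec24d, a COPII cargo adaptor, was at 46.7, 45.4, 54.9, 50.5 and 75.4 CPM, 1.66 times its 3 w level and higher than in any untreated library. Serpinh1 was at 2.28 times 3 w and 1.92 times 16 w.

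Folding genes split after injury. Hspa5 was lower than in every other library, at 0.57 (0.558 to 0.582) of 3 w and 0.185 (0.181 to 0.189) of 16 w. The partners of BiP differed. Against 3 w, Dnajc3 was at 0.422, Dnajb9 at 0.793, Dnajb11 at 1.11 and Manf at 1.23. Sdf2l1 (2.72) and Hyou1 (2.3) were higher than at 3 w and lower than at 16 w, at 0.618 and 0.631. Creld2 (2.64), Pdia4 (2.37), P4hb (1.86), Pdia3 (1.68), Hsp90b1 (1.68) and Canx (1.59) also exceeded 3 w by 1.5-fold. Pdia3 was at 206, 173, 252, 293 and 289.6 CPM and Canx at 188, 114, 160.5, 176 and 181 CPM. Pdia6 stood apart from the other isomerases, at 284, 144, 197, 271 and 108 CPM, 0.748 and 0.545 times. Manf and Calr were at 0.46 and 0.583 of their 16 w level.

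Among the transcription factors and their targets, Ddit3 was at 0.323 (0.301 to 0.347) of its 3 w level and 0.253 of its 16 w level, Dnajc3 at 0.422 and 0.432, and Herpud1 at 0.559 and 0.626. Xbp1 and Creb3l2 were at 0.592 and 0.603 of 16 w and near 1 against 3 w (1.02 and 1.01). The list of stress sensors and degradation genes summed to 1164, 1634, 1568, 1672 and 1798 CPM, highest in the injured library. Selk alone was at 473 CPM at 3 w and 762 in the injured library. By gene, more of this list were lower than higher against 3 w, as was so over all genes tested. Of 12 targets of Atf4, 9 were lower than at 3 w and 0 higher, led by Chac1 (from 46.7 to 3.0 CPM) and Trib3 (from 8.2 to 0.83 CPM), with Stc2 (1.23) and Ppp1r15a (0.863) at the other end. Of 26 genes of targeting and N-glycosylation, 7 were higher and 3 lower, with Ost4 of the oligosaccharyltransferase at 3.52 and Krtcap2 at 2.09 against Srp72 (0.576) and Stt3b (0.617). Of 25 other ER folding genes 3 were higher and 2 lower, with Fkbp2 (2.22) and Fkbp11 (1.97) against Hspa13 (0.526) and Dnajc1 (0.646). COPII genes were 2 higher and 3 lower of 24 (Surf4 1.78, Klhl12 0.496), COPI and Golgi genes 1 and 2 of 16 (Copz2 2.2, Copb1 0.476), and stress sensor and degradation genes 1 and 5 of 23 (Selk 1.61, Os9 0.474). In each of these lists but the targets of Atf4, a smaller share was lower than over all genes tested, whose share is given above.

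As a sum, the genes of protein entry were highest at 3 d and after injury in all cell types. The 9 translocon and signal peptidase genes summed to 2587, 996, 1197, 1286 and 1774 CPM in the EC-like cluster, 2723, 1148, 1079, 1243 and 1893 CPM in the MC-like cluster, 2199, 1218, 1225, 1386 and 2196 CPM in the MPh-like cluster and 3008, 2047, 1800.0, 2089 and 3065 CPM in the synovial lining-like cluster. In each of them the 3 d and injured libraries were above the other 3, as in the stroma. The BiP system summed to 905, 1928, 1839, 1794 and 856 CPM in EC-like cells, lowest in the 3 d and injured libraries with the other 3 close together. From 3 w to 16 w it went from 2242 to 1794 CPM in MC-like, from 1443 to 2630.5 in MPh-like and from 1373 to 2069 in synovial lining-like cells.

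These differences were not limited to the stroma. Kdelr2 was at 2.54 times its 3 w level in the EC-like, 3.25 in the MC-like and 2.93 in the MPh-like cluster, Sec61g at 3.0, 2.91 and 3.03, and Hspa5 at 0.337, 0.30 and 0.465. Against 3 w, 6 of 24 genes were lower and 6 higher (all genes 43% and 6.05%) in the EC-like cluster, 8 of 19 genes were lower and 2 higher (all genes 47.4% and 4.73%) in the MC-like cluster and 4 of 25 genes were lower and 8 higher (all genes 39.1% and 11.9%) in the MPh-like cluster. In the stroma, 3 of 36 genes were lower and 14 higher (all genes 36.5% and 10.5%) in cluster 1, 5 of 34 genes were lower and 12 higher (all genes 46.5% and 7.8%) in cluster 2 and 4 of 34 genes were lower and 15 higher (all genes 40.1% and 10.7%) in cluster 3. The injured library was the shallowest and the highest in the satellite-overlapping Gm genes, and its age lay between the libraries it was compared with. Injury, age and preparation cannot be told apart.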

How the data were processed

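The deposited files were matrices of raw UMI counts per gene and barcode for 5 libraries, which the authors made with Cell Ranger against mm10, version 3.1 per the submitters' processing notes and 4.0.0 per the file headers. A barcode was kept when it held over 200 UMIs of which no more than 30% were mitochondrial. Libraries were integrated and clustered with Seurat 5.3.0 in R 4.3.3 (30 dimensions, resolution 0.2, 2000 variable features per library), with all genes of the lists reported here left out, which left 1964 features. The 10 clusters were named from fixed markers. 2 of them stayed unnamed, and doublets were kept because Scrublet called 5 cells in all. UMIs were summed per cell type and library and divided by that type's total to give CPM (Python 3.11.15, numpy 2.4.6, pandas 2.3.3, scipy 1.17.1, scanpy 1.11.5). Ratios have 95% exact intervals conditional on the summed UMIs, and a gene with fewer than 3 UMIs was set to 3. Ratios were read for genes with at least 100 UMIs in the library with the higher CPM and were called at 1.5-fold. TMM factors came from edgeR 4.0.16. Each condition was 1 library, so no test was run. The reads are UMIs, and the intervals cover counting error only. The code was tested on simulated data.

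The members and the gene lists were chosen with earlier results of these data known. All members were accounted for, with values in full for those past 1.5-fold at 16 w or after injury, and of each other list the genes with the largest ratio in each direction were named. Of the listed symbols 4 were not found in the files. Gene positions are those of GENCODE M21 on GRCm38, matched on Ensembl identifiers, and promoter windows those of RefSeq on GRCm38.p6. The alternatives changed the scaling, the weight of cells and clusters, the cell filter, the clustering, the minimum, the fold, the bins, the depth per cell and the doublets.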

Additional observations from a re-analysis of the deposited data

How the results depend on the processing

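No paired analysis was possible because each condition had 1 library. The planned removal of cells that Scrublet called doublets was not run, since it called 5 cells in all. No ratio past 1.5-fold changed direction under the alternatives that were run, but 107 of 3978 ratios of single genes came to lie on the other side of 1. For 16 w against 3 w in the stroma these were Atf4 (0.959), Ddit3 (0.966) and Dnajb9 (0.912), each with equal weight per stromal cluster, and Dnajc3 (up to 1.02, with TMM scaling). The median log2 ratio of the 36 genes changed sign for injured against 16 w with TMM scaling (-0.09 to 0.04) and in EC-like cells with thinning (0.32 to -0.04). Bins made within clusters also moved some ratios across 1, such as that of Xbp1 at 3 d. In the stroma the ratio of 16 w to 3 w ranged over the alternatives from 2.72 to 3.21 for Hspa5 and from 0.503 to 0.555 for Kdelr3. Among the counts that answer a comparison made here, those that moved by more than 1.5 times were the following. A 2-fold call gave 8 lower genes for 3 w against 3 d, 1 lower and 7 higher for 16 w against 3 w, 0 higher for 78 w against 16 w, 2 lower and 7 higher for injured against 3 w and 4 lower for injured against 16 w in the stroma. For 16 w against 3 w elsewhere it gave 3 higher in EC-like, 2 lower and 0 higher in MC-like, 0 lower and 5 higher in MPh-like and 0 lower and 0 higher in synovial lining-like cells. Equal weight per stromal cluster gave 5 higher for 78 w against 16 w. TMM scaling gave 6 higher in EC-like cells. Thinning to 1000 UMIs, chosen after seeing the data, gave 4 higher in EC-like, 2 lower and 0 higher in MC-like, 1 lower and 1 higher in MPh-like and 0 lower and 1 higher in synovial lining-like cells, where fewer genes then reached 100 UMIs. Without a minimum, 4 were higher in MC-like and 6 in synovial lining-like cells. Leaving the 50 most abundant genes out of the total gave 1 lower in MPh-like cells, and equal weight per cell gave 4 higher in synovial lining-like cells. For the bins of stromal cells by collagen I, 2 bins in place of 4 gave 1 higher and 1 lower at 3 d, 1 higher and 1 lower at 3 w, 1 higher at 16 w, 1 higher at 78 w and 2 higher after injury. Thinning gave 2 lower at 3 d, 1 higher at 16 w and 3 higher at 78 w, and bins within clusters gave 2 lower at 3 d and 5 higher at 78 w. The causes were not tested, beyond the fewer genes that a stricter fold or lower depth leaves. The other 195 counts that answer a comparison stayed within 1.5 times. Of the remaining counts, which answer none, 1092 moved by more than that and 2988 did not. The depth of the EC-, MC-, MPh- and synovial lining-like clusters limits what can be called there. Shares over all genes are not given for the counts under the alternatives. These counts therefore do not show how the 36 genes stood against all genes there.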

Other observations

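A cluster of 451 cells led by the cell division genes Cenpf, Prc1, Mki67 and Top2a stayed outside the named cell types, and 400 of its cells came from the 3 d library. There the 36 genes summed to 7962 CPM, close to the 8108 CPM of the stroma of the same library, and collagen I to 17893 against 19931 CPM. Hsp90b1 was at 789 CPM against 495 in the stroma, Creld2 at 58.7 against 35.6 and Manf at 317 against 220.2. Xbp1 was at 41.0 against 74.2 CPM, Dnajb9 at 31.7 against 65.4 and Sec61b at 460.1 against 699. These values belong to 1 library and were not compared by a test.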
